A study of Mus musculus with 3 samples.

Results

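The genes described here encode the proteasome, the protease complex that degrades proteins tagged with ubiquitin, together with the factors that assemble, activate or inhibit it. They were taken by name: every row of the expression table whose unique name began with Psma to Psmg followed by a number, without pseudogenes and without the interferon-inducible Psmb8, Psmb9 and Psmb10. This gave 47 of 51826 rows. Of these, 45 reached 1 FPKM in any library (fragments scaled to transcript length and library depth), and Psma8 and Psmb11 did not. Values in a row of 3 are for control, NELL2 overexpression and Fn1 knockdown cells, in that order. At that limit, Psme2b was the nearest gene inside, at 1.11, 1.30 and 1.57 FPKM, and Psma8 the nearest outside, at 0.526, 0.407 and 0.470 FPKM.

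The cells were ST2, a mouse stromal line derived from bone marrow that can form osteoblasts or adipocytes. They were co-transfected with lipofectamine 3000 and sequenced as 3 libraries, 1 per group. Control cells (NC_Vector) carried the vector alone with a control siRNA. For NELL2 overexpression (NC_Nell2) a NELL2 construct took the place of the vector, with the same control siRNA. For Fn1 knockdown (siFn1_Vector) the vector was combined with siRNA against Fn1. The siRNA was at 30 nM in all. The comparisons ask which genes differ when the secreted protein NELL2 is raised or fibronectin 1, its reported binding partner, is lowered. With 1 library in each group there is no replicate check, so every difference below is one between libraries, no test was run, and both comparisons share the control library. In bulk RNA, fewer cells of a type and less RNA per cell cannot be told apart.

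The targeted genes moved as labelled. Nell2 was at 0.640, 326 and 1.06 FPKM, and Fn1 at 2802, 2489 and 137 FPKM. The 10 stromal markers checked all reached 1 FPKM, with 2.17 to 1494 FPKM in the control library. Of 6 blood cell markers, 1 reached 1 FPKM, their summed level was between 1.95 and 4.82 FPKM in the 3 libraries, and Cd3e was at 0 throughout. Epithelial markers summed to 0.104 FPKM or less. Depth estimated from low values was about 23000000, 23700000 and 24200000 fragments. This gave the 45 proteasome genes between about 21 fragments (Psme2b) and about 7210 fragments (Psmd8) in the control library.

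The 20S core particle is a barrel of alpha rings, which gate the entrance, and beta rings, which carry the protease sites. The 19S particle caps the barrel. Its base holds the ATPase ring that unfolds substrates, and its lid removes ubiquitin chains. Other caps, the PA28 complexes and PA200, open the barrel without ATP. The transcription factor NRF1 (Nfe2l1) raises proteasome genes when proteasome activity is short, through antioxidant response elements, and interferon raises the PA28 genes and the inducible beta subunits. In bone, the proteasome is known for degrading RUNX2, the master factor of osteoblasts, and proteasome inhibitors are known to favour osteoblast formation.

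Promoter sequence was read first, since these known regulators act there. A RefSeq promoter on GRCm38.p6, from 250 bases before to 50 bases after a transcript start, was given for 39 of the 47 genes, as 42 windows of 300 bases. No entry was matched for Psma8, Psmb1, Psmb2, Psmb7, Psmc3, Psmd3, Psmd7 and Psmg2. The antioxidant response element core (TGACNNNGC, either strand) was present in 6 of the 42 windows, or 14.3%, against 12.4% of all 32851 promoter windows. The other motifs were also searched on either strand. The CCAAT box was present in 14 windows, or 33.3%, against 37.4%. The interferon-stimulated response element core (GAAA, any 2 bases, then GAAA) was present in 5 windows, or 11.9%, against 3.44%, in Psmb3, Psmd4, Psmd9, Psme1 and Psmg4. The gamma-activated sequence core (TTCNNNGAA) was present in 2 windows, or 4.76%, against 8.30%. No match of 1 motif overlapped a match of another in these windows. A match describes letters and is not evidence of binding.

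The genes past a 1.2-fold difference in either comparison that held a searched motif are shown, because they join the promoter to the expression values below. Psmb5 and Psmb6, which encode protease sites, are shown as well and were chosen after the matches had been seen. Each stretch is 30 bases, written 5′ to 3′ on the strand of the gene, with the motif in capitals. The motif lay after the transcript start in Psme1 and Psmd2, spanned it in Psme4 and lay before it in the others.
Psme4, antioxidant response element core on the opposite strand, chr11:30771757-30771786, plus strand: gcgctgcggctGCAGCGTCAccagaagagc
Psmb5, antioxidant response element core, chr14:54618024-54618053, minus strand: acgtgaagttgTGACGTCGCggcgttgcca
Psmb6, antioxidant response element core, chr11:70525337-70525366, plus strand: actaaagagagTGACGGAGCgctttacgac
Psme1, interferon-stimulated response element core on the opposite strand, chr14:55578493-55578522, plus strand: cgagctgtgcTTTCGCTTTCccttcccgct
Psmd2, gamma-activated sequence core, chr16:20651645-20651674, plus strand: cgcgcgtggccTTCTGGGAAaaggggcggt
Psmg1, gamma-activated sequence core, chr16:95991181-95991210, minus strand: actcatgTTCTCTGAAtccgcttgcagtca
Psmc3ip, CCAAT box, chr11:101095455-101095484, minus strand: gcttcttccttagCCAATcagcgttaaggt

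Proteasome genes were abundant in all libraries. In the control library the 31 subunits of the 20S core and of the 19S base and lid had a median level of 85.2 FPKM, and ranked between the 88.4th and the 97.9th percentile of the 12733 genes that reached 1 FPKM. The highest was Psmd8, a lid subunit, at 206, 192 and 202 FPKM. The lowest in the control was Psmd11, another lid subunit, at 46.9, 39.8 and 56.1 FPKM. Highest and lowest thus differed 4.39-fold per length, although the complex holds its subunits in fixed numbers. The order of the 31 levels was close to that of the control in the other libraries, with Spearman's rho of 0.977 with NELL2 overexpression and 0.955 after Fn1 knockdown. These are descriptions across genes, which are not replicates.

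Levels differed by role. The 7 beta ring subunits had the narrowest spread in FPKM, with a coefficient of variation of 17.3% in the control, from Psmb2 at 85.2 FPKM to Psmb1 at 144 FPKM. The 9 base subunits had 21.2%, the 7 alpha subunits 38.4% and the 8 lid subunits 65.9%. The 7 assembly chaperones were far lower than the subunits, with a control median of 13.5 FPKM. The 45 genes together held 0.807%, 0.844% and 0.886% of all FPKM, lowest in the control and highest after Fn1 knockdown.

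**Figure D1:**
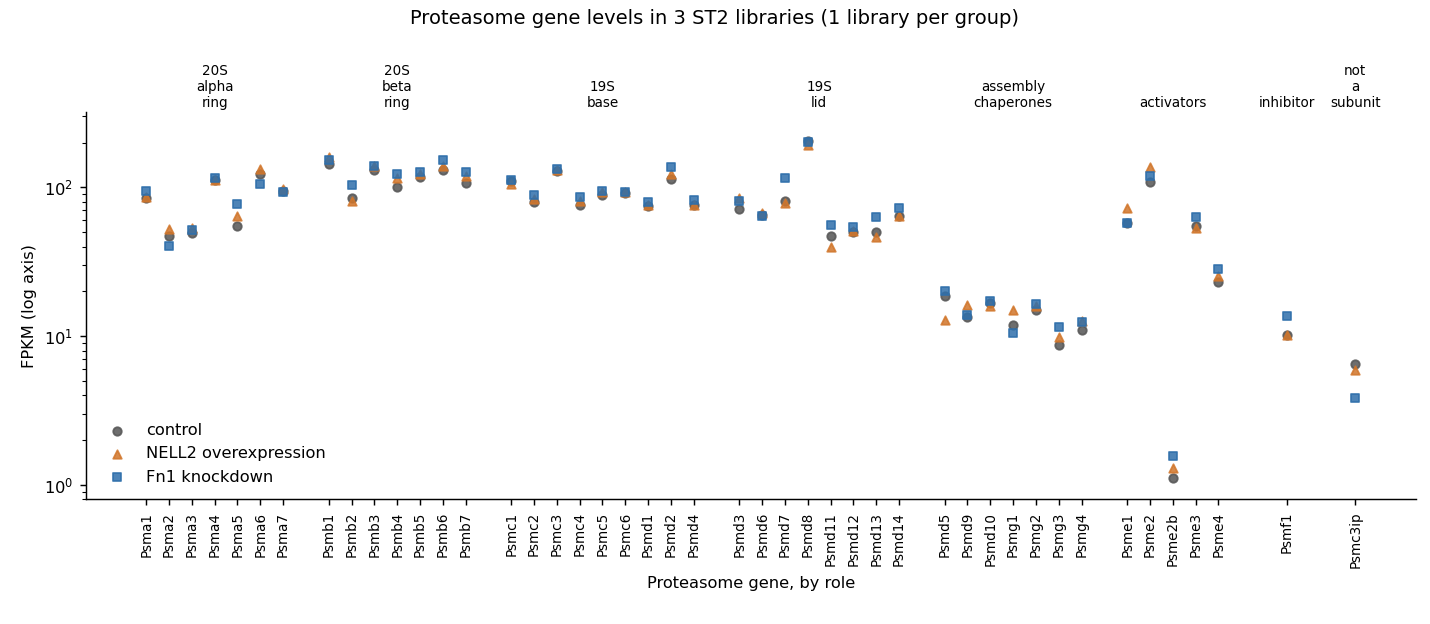
FPKM on a log axis of the 45 proteasome genes in the libraries of control (circles), NELL2 (triangles) and Fn1 knockdown (squares) cells, grouped by role. The 20S and 19S subunits lie between 39.8 and 206 FPKM and the assembly chaperones between 8.69 and 20.04 FPKM, and the points of the 3 libraries stay close for each gene.

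Differences between libraries were small. Ratios are log2 ratios of FPKM + 1, treated over control. After Fn1 knockdown, 37 of the 45 genes were above the control, against 49.5% of all genes, and the median was 0.12 against -0.0030 over all 12733 genes. With NELL2 overexpression, 31 of 45 were above the control, against 52.3% of all genes, and the median was 0.067 against 0.0071. No gene reached 2-fold in either comparison, against 0.644% of all genes with NELL2 overexpression and 1.22% after Fn1 knockdown.

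At 1.2-fold, a log2 ratio of 0.26, 10 of 45 genes were higher after Fn1 knockdown (22.2%, against 14.0% of all genes) and 1 was lower (2.22%, against 15.6%). With NELL2 overexpression 3 were higher (6.67%, against 7.79%) and 1 was lower (2.22%, against 5.95%). The share of higher genes with NELL2 overexpression was thus near that of all genes. The Fn1 knockdown library held the highest level of 31 of the 45 genes, against 37.9% of all genes. The control library held the highest level of 2, Psmd8 and Psmc3ip, against 30.3%. NELL2 overexpression gave the highest level of the other 12, against 31.8%. Among the 43 proteasome genes at 10 FPKM or more, 9 were higher by 1.2-fold after Fn1 knockdown and 0 lower, against 14.2% and 12.7% of the 6524 genes at that level, and 36 were higher by any amount, against 53.5%. With NELL2 overexpression 3 were higher and 1 was lower by 1.2-fold, against 6.32% and 4.58%, and 30 were higher by any amount, against 52.8%. None reached 2-fold, against 0.536% with NELL2 overexpression and 1.38% after Fn1 knockdown.

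**Figure D2:**
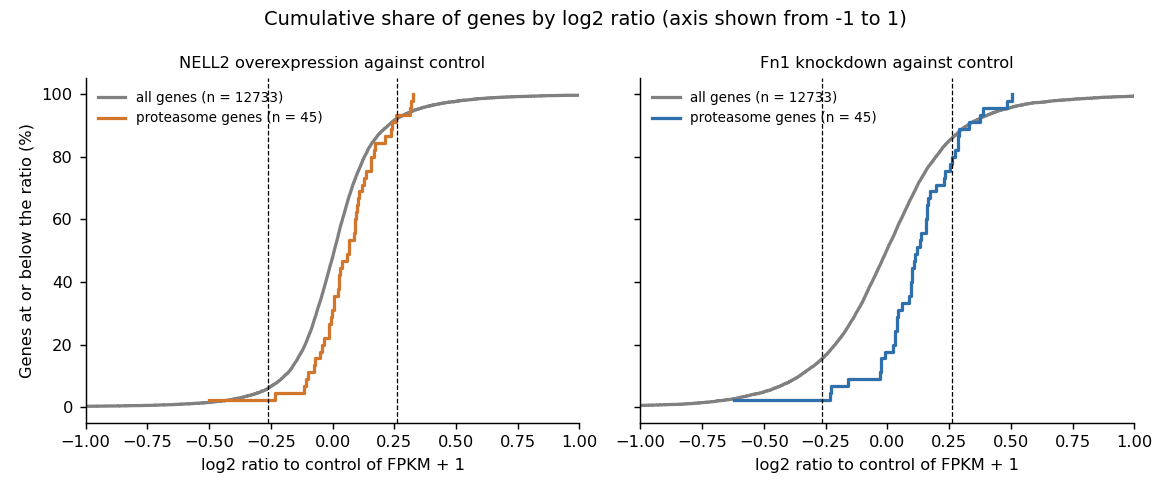
Cumulative share of genes (percent) by log2 ratio of FPKM + 1 to the control, for all 12733 genes (grey) and the 45 proteasome genes (colour), with NELL2 overexpression on the left and Fn1 knockdown on the right. Dashed lines mark 1.2-fold, and the proteasome curve lies to the right of the grey one over most of its middle range, by more after Fn1 knockdown (medians 0.12 and -0.0030) than with NELL2 overexpression (medians 0.067 and 0.0071).

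The counting error of these ratios, taken from the estimated fragments, had a median of 0.043 on the log2 scale in each comparison and reached 0.23 for Psme2b. It covers counting only and leaves out the unmeasured spread between cultures.

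The alpha ring was mixed after Fn1 knockdown, with 4 of 7 genes higher than the control and a median of 0.040. Psma5 (chromosome 3, 108256926 to 108279974, plus strand) was at 54.8, 64.7 and 77.1 FPKM. Its level was thus lowest in the control and highest after Fn1 knockdown, with log2 ratios of 0.24 and 0.49, the latter the largest of the 20S core. Some 27.5% of its 100-base stretches also occur in other annotated genes, of which the main one, Gm8394, was at 0.220 FPKM or less. Psma6, the most abundant alpha gene in the control, was at 124, 132 and 105 FPKM, and Psma2, the least abundant, at 47.5, 52.2 and 40.3 FPKM. Both lay lowest after Fn1 knockdown, at log2 ratios of -0.23 each, short of 1.2-fold. Psma1, Psma3, Psma4 and Psma7 had ratios between -0.028 and 0.16 in that comparison. With NELL2 overexpression, 6 of the 7 alpha genes were above the control and none passed 1.2-fold.

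In the beta ring, all 7 genes were higher than the control after Fn1 knockdown, with a median of 0.23 and a summed FPKM at 114% of the control. Psmb4, a structural subunit, was at 101, 117 and 123 FPKM, with a log2 ratio of 0.29 after knockdown. Psmb2 was at 85.2, 80.8 and 104 FPKM, with the same log2 ratio of 0.29 after knockdown and -0.076 with NELL2. These were the only beta genes past 1.2-fold. With NELL2 overexpression, 6 of 7 were above the control, with a median of 0.10, and Psmb1 was at 144, 160 and 153 FPKM.

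The protease sites lie in Psmb5 (chymotrypsin-like), Psmb6 (caspase-like) and Psmb7 (trypsin-like). Psmb5 was at 118, 123 and 128 FPKM. Psmb6 was at 130, 139 and 153 FPKM, and Psmb7 at 107, 120 and 126 FPKM. All were in the same order, lowest in the control and highest after Fn1 knockdown, with log2 ratios of 0.12, 0.23 and 0.23 in that comparison. The promoters of Psmb5 and Psmb6 held the antioxidant response element core shown above. The core was also present in the promoters of Psmc6, Psmd9, Psmd12 and Psme4. Their log2 ratios after Fn1 knockdown were 0.032, 0.042, 0.095 and 0.27, against a median of 0.12 over the 45 genes. An exon of Psmb7 overlaps Nek6 on the opposite strand, which was at 5.68 FPKM or less.

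Their inducible counterparts replace them in the immunoproteasome and are not counted among the 45 genes. Psmb8 was at 46.9, 62.3 and 42.9 FPKM, Psmb9 at 9.32, 13.7 and 12.7 FPKM, and Psmb10 at 38.0, 53.1 and 44.6 FPKM. Each was highest with NELL2 overexpression, with log2 ratios of 0.40, 0.51 and 0.47, all past 1.2-fold. After Fn1 knockdown the ratios were -0.13, 0.41 and 0.22, and Psmb9 was past 1.2-fold there too. Psmb9 rested on about 110, 170 and 160 fragments, and no counting error was computed for these inducible genes. On the opposite strand, exons of Psmb9 overlap Tap1 and exons of Psmb8 overlap Gm20496. As a share of the FPKM of its pair, Psmb8 was 28.5%, 33.6% and 25.1%. Psmb9 was 6.67%, 8.94% and 7.66% of its pair with Psmb6, and Psmb10 was 26.1%, 30.7% and 26.1% of its pair with Psmb7. The constitutive gene of each pair was the more abundant in every library.

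**Figure D3:**
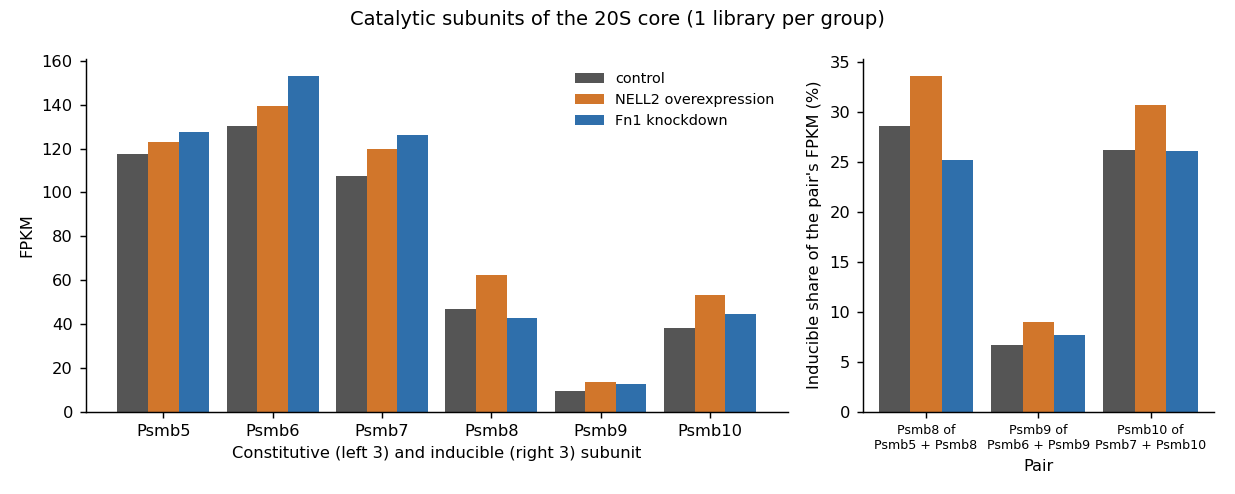
FPKM of the constitutive (Psmb5, Psmb6, Psmb7) and inducible (Psmb8, Psmb9, Psmb10) protease subunits in the 3 libraries (left), and the share in percent that the inducible gene takes of the FPKM of its pair (right). The constitutive genes are highest after Fn1 knockdown, whereas each inducible gene and its share are highest with NELL2 overexpression, at 33.6%, 8.94% and 30.7%.

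The 9 genes of the 19S base varied little. All 9 were above the control after Fn1 knockdown, with a median of 0.10, and 7 of 9 with NELL2 overexpression, with a median of 0.029. The ATPase genes Psmc1 to Psmc6 had log2 ratios of 0.025 to 0.17 after Fn1 knockdown and -0.071 to 0.090 with NELL2. Psmc3, the most abundant base gene in the control, was at 129.6, 130.04 and 133 FPKM, and Psmd1, a scaffold subunit and the least abundant, at 74.8, 75.9 and 80.0 FPKM. Psmd2, the other large scaffold subunit, was at 114, 122 and 137 FPKM. It was the only base gene past 1.2-fold after Fn1 knockdown and lay just past it, at 0.26. Psmd4, a ubiquitin receptor, was at 76.4, 75.7 and 82.8 FPKM.

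The 19S lid held the largest single ratio among the subunits. Psmd7 (chromosome 8, 107580381 to 107588464, minus strand), the inactive partner of the deubiquitinase Psmd14, was at 81.1, 78.6 and 115 FPKM. Only the Fn1 knockdown library stood apart, at 142% of the control and a log2 ratio of 0.50. The counting error of that ratio was 0.034, and no 100-base stretch of Psmd7 occurs in another gene. Psmd14 itself was at 64.6, 64.6 and 72.4 FPKM, a log2 ratio of 0.16 after knockdown. Psmd13, a structural lid subunit (chromosome 7, 140881968 to 140898643, plus strand), was at 50.3, 46.7 and 63.6 FPKM, with log2 ratios of -0.11 with NELL2 overexpression and 0.33 after Fn1 knockdown. Of its 100-base stretches, 12.9% occur on the opposite strand in Sirt3, which was at 2.60, 2.62 and 2.83 FPKM.

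The other lid genes stayed within 1.2-fold. Psmd11 fell short of it on both sides, at -0.23 with NELL2 overexpression and 0.25 after Fn1 knockdown. Psmd3 had log2 ratios of 0.26 and 0.17, the first just under 1.2-fold, with 71.4, 85.5 and 80.6 FPKM. Psmd6 and Psmd8 were the 2 lid genes below the control after Fn1 knockdown, at -0.025 and -0.026. With NELL2 overexpression the lid was the only group of several genes with a median below 0, at -0.022, and 3 of 8 genes were above the control.

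**Figure D4:**
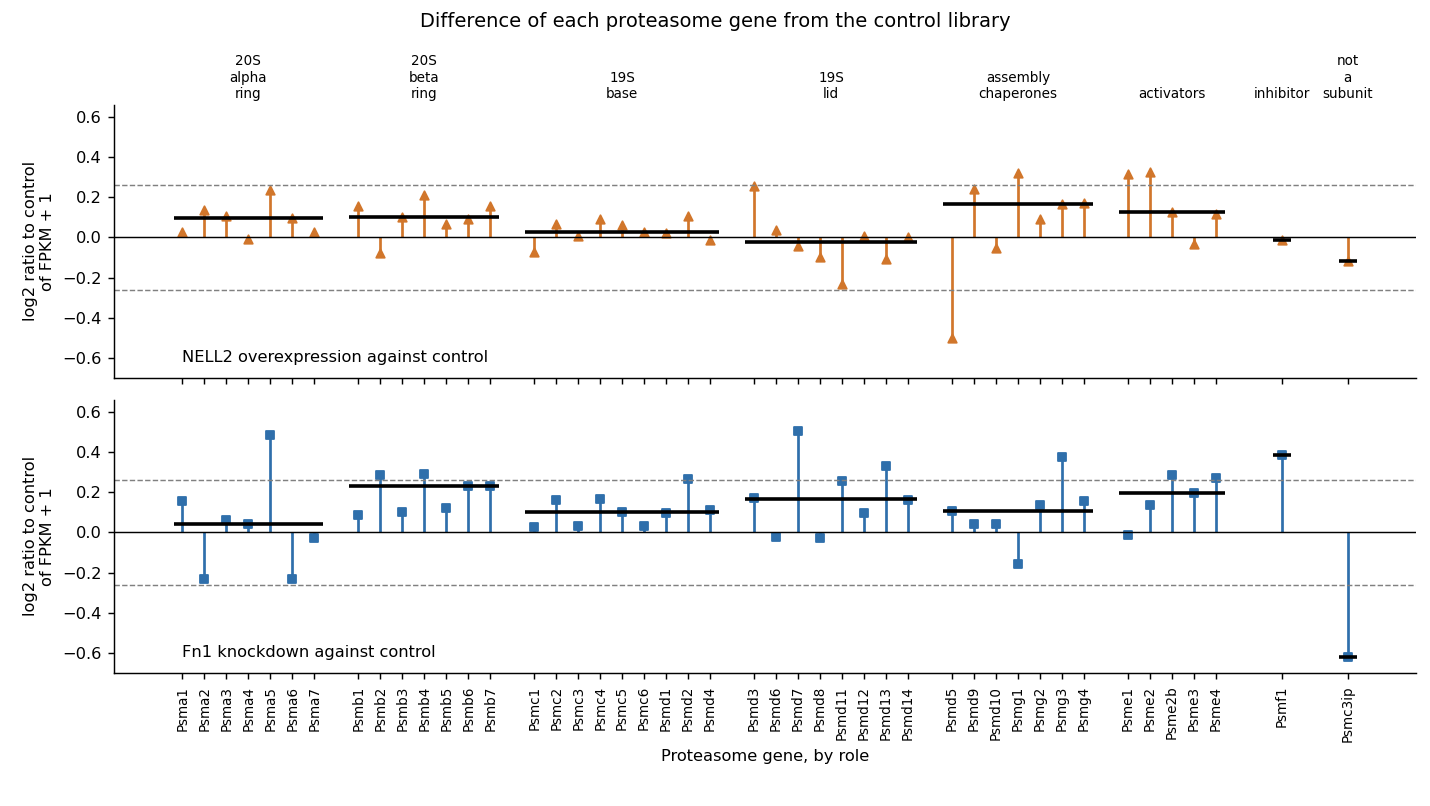
Log2 ratio of FPKM + 1 to the control for the 45 proteasome genes, with NELL2 overexpression (top) and Fn1 knockdown (bottom), grouped by role. Black bars are group medians and dashed lines mark 1.2-fold. All beta ring and base genes lie above 0 after Fn1 knockdown, with Psmd7 and Psma5 the highest at 0.50 and 0.49, and Psmd5 is the lowest with NELL2 overexpression at -0.50.

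Among assembly factors, Psmd5, a chaperone of the 19S base (chromosome 2, 34849734 to 34874968, minus strand), was at 18.5, 12.8 and 20.04 FPKM. It was the only one of the 45 genes lower by 1.2-fold with NELL2 overexpression, at 69.2% of the control and a log2 ratio of -0.50. None of its 100-base stretches is shared with another gene, and the counting error was 0.064. The other base chaperones, Psmd9 and Psmd10, had log2 ratios of 0.24 and -0.052 in that comparison and of 0.042 and 0.039 after Fn1 knockdown.

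Psmg1 to Psmg4 encode chaperones that build the alpha ring. Psmg1 (chromosome 16, 95979933 to 95990960, minus strand) was at 11.9, 15.0 and 10.5 FPKM, highest with NELL2 overexpression, where it was past 1.2-fold at 0.32 with a counting error of 0.11, and lowest after Fn1 knockdown at -0.16. Its dimer partner Psmg2 was at 14.9, 16.0 and 16.5 FPKM and was within 1.2-fold in both. Psmg3 (chromosome 5, 139823592 to 139826885, minus strand) was at 8.69, 9.90 and 11.6 FPKM, with log2 ratios of 0.17 and 0.38, the second past 1.2-fold with a counting error of 0.13. It shares 17.7% of its 100-base stretches with Gm26938 on the same strand, which was listed at 0 in all libraries. Psmg4, the partner of Psmg3, was at 11.1, 12.6 and 12.5 FPKM, with log2 ratios of 0.17 and 0.16. The counting errors against the control were 0.093 and 0.092 for Psmg2, and 0.16 in both comparisons for Psmg4. The treated levels of each lay close, so which library was highest was not resolved for Psmg2 and Psmg4.

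The activators held 2 of the 3 genes higher by 1.2-fold with NELL2 overexpression. Psme1 and Psme2 encode the alpha and beta subunits of PA28, which is induced by interferon, and lie near each other on chromosome 14, at 55578123 to 55581529 on the plus strand and 55587441 to 55591113 on the minus strand. Psme1 was at 57.8, 72.2 and 57.4 FPKM and Psme2 at 109, 136 and 119 FPKM. Their ratios with NELL2 overexpression were 0.32 and 0.33, both past 1.2-fold. Psme2 was thus 1.88 and 1.89 times as high as Psme1 in the control and NELL2 overexpression libraries, and 2.08 times after Fn1 knockdown. The promoter of Psme1 held the interferon-stimulated response element core shown above, and that of Psme2 held none of the 4 motifs. The summed level of the 6 blood cell markers was 4.67, 4.82 and 1.95 FPKM, and its part in these ratios was not tested.

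Psme2b, a near copy of Psme2 on chromosome 11, shares 52.0% of its 100-base stretches with Psme2, and Psme2 shares 44.5% of its own with Psme2b, so the division of fragments between them is uncertain. Its log2 ratio of 0.29 after Fn1 knockdown was past 1.2-fold, but rested on about 21 and 32 fragments with a counting error of 0.23. Psme3, the nuclear PA28 gamma subunit, was at 54.6, 53.3 and 62.8 FPKM, with log2 ratios of -0.035 and 0.20. Psme4, which encodes the nuclear cap PA200, was at 23.2, 25.2 and 28.2 FPKM, with 0.12 and 0.27, the second just past 1.2-fold with a counting error of 0.099. Of the 8 genes higher by 1.2-fold after Fn1 knockdown that had a promoter entry, 1 held the antioxidant response element core, against 12.4% of all promoter windows. This gene was Psme4.

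Psmf1 (chromosome 2, 151715812 to 151744186, minus strand), which encodes the proteasome inhibitor PI31, was at 10.2, 10.1 and 13.7 FPKM. Its level was nearly equal in the first pair and higher after Fn1 knockdown, by 0.39 on the log2 scale with a counting error of 0.070.

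Psmc3ip, taken up by its name, encodes a partner of the recombination proteins of meiosis and is not a proteasome subunit. It was at 6.48, 5.90 and 3.86 FPKM, and its log2 ratio of -0.62 after Fn1 knockdown was the only one lower by 1.2-fold in that comparison and the largest in size of all 45. Of its 100-base stretches, 24.0% occur on the opposite strand in Mlx, which was at 10.1, 11.1 and 9.99 FPKM. No proteasome gene proper was thus lower by 1.2-fold after Fn1 knockdown. Psma8, the alpha subunit of the testis, stayed under 1 FPKM, and Psmb11, the beta subunit of the thymus, was at 0.010 FPKM in the control and 0 in the others.

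Positions are on GRCm38, and all genes located above are annotated as protein coding. The 47 genes lie on 16 chromosomes, with 10 on chromosome 11 and 6 each on chromosomes 2 and 14. Exons of 4 of the 45 overlap another gene on the same strand (Psmb5, Psmd1, Psme2b and Psmg3), and 10 overlap one on the opposite strand. For 27 of the 45, no 100-base stretch of the longest coding transcript occurs in another gene, and Psme2b was the only one with more than 50%.

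Other genes of the ubiquitin and proteasome pathway were taken from a list of 50, of which 49 reached 1 FPKM and Paaf1 was not matched. With NELL2 overexpression, 4 of 49 were higher by 1.2-fold and 0 were lower, against 7.79% and 5.95% of all genes. These were the 3 inducible subunits above and Nlrc5, a transactivator of class I antigen presentation genes, at 10.1, 13.8 and 14.6 FPKM. Nlrc5 had log2 ratios of 0.42 with NELL2 overexpression and 0.50 after Fn1 knockdown, so that Nlrc5 and Psmb9 were past 1.2-fold in both comparisons. After Fn1 knockdown, 7 of 49 were higher and 2 lower by 1.2-fold, against 14.0% and 15.6% of all genes. The median over the list was 0.021 with NELL2 overexpression and 0.077 after Fn1 knockdown.

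Among the regulators, Nfe2l1, which encodes NRF1, was at 54.6, 64.7 and 86.8 FPKM, in the same order as the protease subunits. Its log2 ratio of 0.66 after Fn1 knockdown was the highest on the list, and with NELL2 overexpression it was at 0.24. Nfe2l2, which encodes NRF2, was at 65.0, 70.4 and 77.6 FPKM, with 0.25 after Fn1 knockdown, short of 1.2-fold, and 0.27, past it, with median-of-ratios scaling. Of the small MAF partners of both factors, Mafk was past 1.2-fold after Fn1 knockdown at 0.35, with 16.1, 17.8 and 20.7 FPKM, whereas Mafg was at 0.24 and Maff at -0.053. Foxo4, a forkhead factor, was at 5.54, 5.69 and 7.64 FPKM, with 0.40 after Fn1 knockdown. The NF-Y genes Nfya, Nfyb and Nfyc, whose product binds the CCAAT box, were at -0.18, -0.10 and -0.072 after Fn1 knockdown.

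Irf1, a transcription factor of interferon responses, was at 17.0, 17.5 and 15.7 FPKM. It was within 1.2-fold in both comparisons.

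The remaining subunits stayed close to the control. Adrm1, a ubiquitin receptor of the base, was at 52.8, 52.1 and 56.7 FPKM, and Sem1, a small lid subunit, at 44.5, 48.8 and 48.4 FPKM. Pomp, which matures the beta ring, was at 60.9, 67.5 and 64.3 FPKM. All were within 1.2-fold in both comparisons.

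Of the enzymes, the deubiquitinase Usp14 was at 55.1, 53.9 and 50.5 FPKM and stayed within 1.2-fold. The ligase Ube3a was at 12.3, 12.5 and 16.8 FPKM, with a log2 ratio of 0.42 after Fn1 knockdown. Ube2d3, a ubiquitin-conjugating enzyme, was at 133, 129.9 and 81.4 FPKM. It was past 1.2-fold only after Fn1 knockdown, at -0.70, the largest ratio in size among the 49 genes. Ubb, a ubiquitin gene, was at 681, 700.4 and 685 FPKM, within 1.2-fold in both comparisons. No gene among the 12 shuttle and p97 genes passed 1.2-fold in either comparison, against 14.0% of all genes higher and 15.6% lower after Fn1 knockdown and 7.79% and 5.95% with NELL2 overexpression. After Fn1 knockdown 11 of them were above the control, against 49.5% of all genes.

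**Figure D5:**
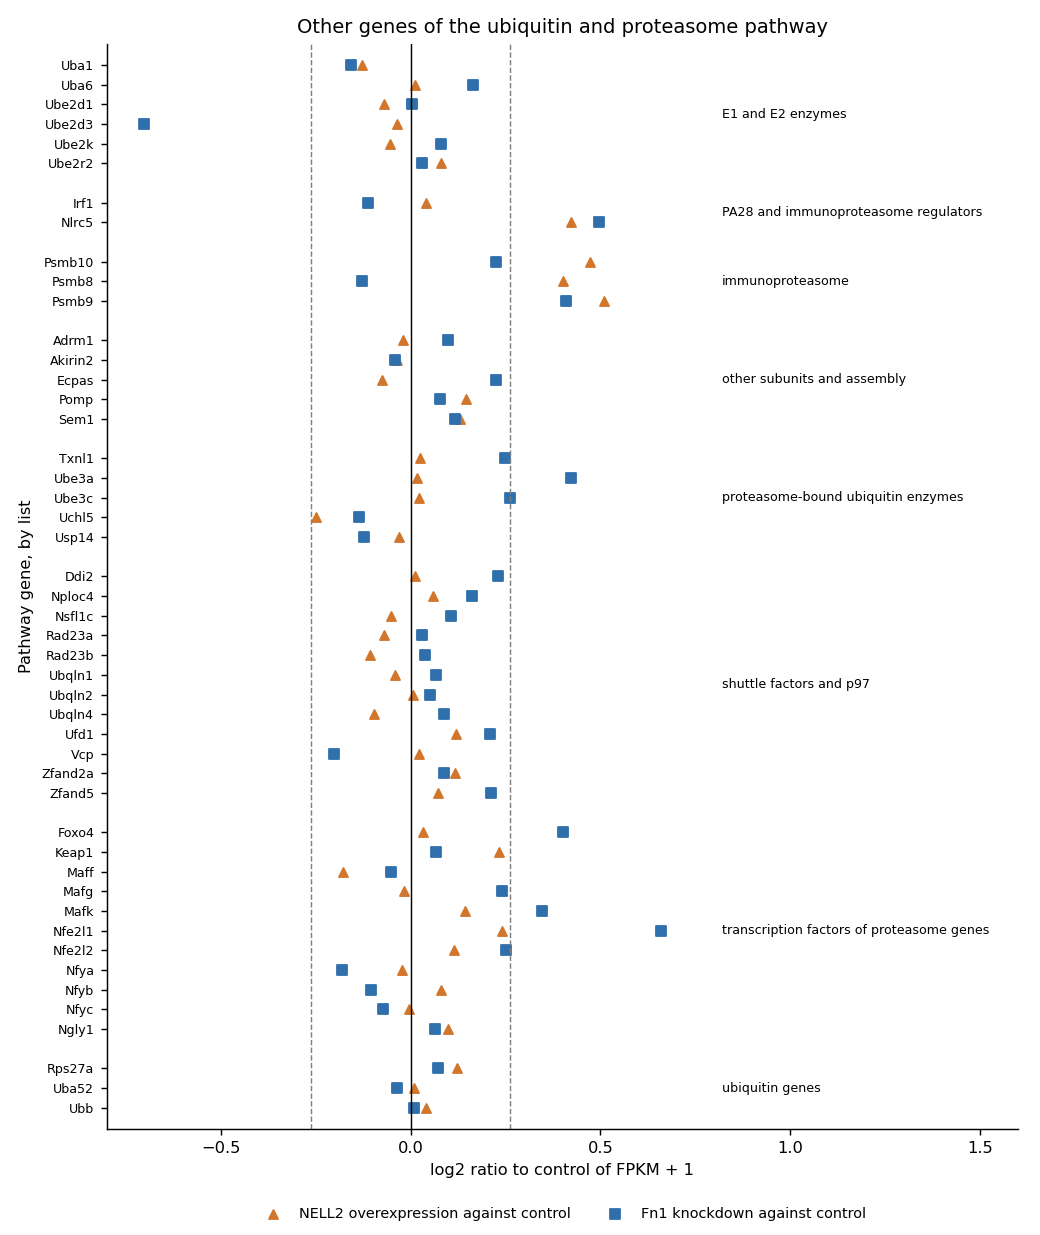
Log2 ratio of FPKM + 1 to the control for 47 of the 49 other pathway genes, by list, with NELL2 overexpression (triangles) and Fn1 knockdown (squares), with dashed lines at 1.2-fold. Nfe2l1 is the highest after Fn1 knockdown at 0.66 and Ube2d3 the lowest at -0.70, while the inducible subunits and Nlrc5 are the genes past 1.2-fold with NELL2 overexpression, and Nlrc5 and Psmb9 are also past it after Fn1 knockdown.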

How the data were processed

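The deposited values were FPKM per gene in 3 libraries of ST2 cells. Per the labels and methods, the authors enriched polyadenylated RNA, sequenced 150 bp paired-end reads on an MGISEQ-2000 and mapped them with HISAT2, with GRCm38 as the build. The program and annotation behind FPKM and the use of strand are not given in the sources used here. DESeq is named among the tools, but the values are not counts.

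Ratios were differences of log2(FPKM + 1) for the 12733 genes that reached 1 FPKM somewhere, computed with Python 3.11.15 and pandas 2.3.3, and checked on simulated data. A gene was called at 1.2-fold or 2-fold on this scale, which understates changes of low genes. Genes, lists, roles and folds were chosen with earlier results of these data known. Named were all genes past 1.2-fold, the extremes of each role, and fixed regulators. Chosen after their values were seen were Psmc6, Psmd3, Psmd4, Psmd9, Psmd12, Psmd14, Psmg2, Psmg4, Psme3, Irf1 and Ubb. So were Mafg, Maff, the NF-Y genes and the genes that share sequence or overlap.

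Depth was estimated from single-transcript genes of 600 bases or more. Of their low values, 22.0% to 22.9% lay within 0.02 of a whole fragment, so fragment numbers are approximate. Lengths, positions and shared 100-base stretches came from GENCODE M21 (GRCm38), and promoters from RefSeq. The length of a gene was the median over its annotated coding transcripts, such as 657 bases for Psme4 and 659 for Psmd2. Where longer transcripts were the ones expressed, fragment numbers are too low and counting errors too high. Values of 2 pathway genes and 1 marker are not reported here.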

Additional observations from a re-analysis of the deposited data

How the results depend on the processing

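No paired analysis was possible because the groups hold 1 library apiece, so leaving a library out was not possible either. The alternatives were pseudocounts of 0.1 and 5, no filter, a filter of 10 FPKM, rescaling to equal sums, median-of-ratios scaling (factors 0.993 to 1.01), folds of 1.1 and 1.5, and leaving out genes with same-strand overlaps. Chosen after seeing the data were leaving out Psme2b, which shares over 50% of its stretches, and Psmc3ip. Of 116 counts and medians recomputed, 101 stayed within 1.5 times the value reported. The fold mattered most. At 1.1-fold, 11 genes were higher and 2 lower with NELL2 overexpression (18.8% and 16.0% of all genes), 20 and 4 after Fn1 knockdown (27.0% and 28.4%), and 10 and 23 pathway genes were called. At 1.5-fold, none was called with NELL2 overexpression, members or pathway (0), and after Fn1 knockdown 0 were higher, 1 was lower and 2 pathway genes were called, against 1.53% of all genes higher and 1.05% lower with NELL2 overexpression and 2.89% and 3.28% after Fn1 knockdown. At 10 FPKM or more, 0 of 43 were lower after Fn1 knockdown, since Psmc3ip is left out. The activator median with NELL2 overexpression was 0.21 with a pseudocount of 0.1, because Psme2b is low, and the value of Psmf1 there was -0.023 with median-of-ratios scaling. Calls near 1.2-fold were lost with a pseudocount of 5 for Psmg1 with NELL2 overexpression (0.25) and for Psmd2, Psme4, Psme2b and Foxo4 after Fn1 knockdown (0.26, 0.24, 0.10 and 0.26). Psmd11 passed 1.2-fold after Fn1 knockdown with either scaling (0.27 at both, after rounding), as did Ube3c (0.28 at both, and 0.27 with a pseudocount of 0.1). Nfe2l2 (0.27) and Txnl1 (0.26) passed it with median-of-ratios scaling, and Uchl5 with NELL2 overexpression with a pseudocount of 0.1 (-0.27) or equal sums (-0.26). No called value changed sign under these alternatives.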
